A study of Mus musculus with 72 samples.

Results

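The 5 genes described here encode the carriers that move citrate and the dicarboxylates succinate, malate and fumarate across liver cell membranes: Slc13a2, Slc13a3 and Slc13a5 of the plasma membrane, and Slc25a1 and Slc25a10 of the inner mitochondrial membrane. They are 5 of the 19938 genes that a probe set with a single gene symbol measured, and each was represented by 1 such probe set. They were singled out with their high-fat diet (HFD) minus control differences in view, so those differences are given below as a description with no test. Affymetrix Mouse Gene ST arrays were hybridised with RNA of 72 livers, 1 array for each liver. The mice were wild-type males, housed singly and sampled random-fed.

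The HFD groups had eaten the diet for 21 days and were 17 weeks old. They held 7 mice of 129P2/OlaHsd (129 below), 7 of C57BL/6J (B6J), 8 of C57BL/6NTac (B6N) and 8 of C3HeB/FeJ (C3H). The control groups held 8 mice of 129, aged 17 weeks, and 8 of B6J, 8 of B6N and 18 of C3H, aged 15 to 17 weeks. The controls' treatment label reads none, although the protocol describes a low-fat diet of up to 21 days. The labels do not settle who ate it, so each HFD difference is a difference from these controls as labelled. Nothing in the labels says which mice shared a litter or day, and the limma p-values set each difference against the spread between these livers.

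Citrate stands at a junction of liver metabolism. Inside mitochondria it is an intermediate of the citric acid cycle, and once exported to the cytosol it is cleaved to give the acetyl-CoA used for fatty acid and cholesterol synthesis. Slc25a1 exports it in exchange for malate, and Slc25a10 exchanges malate or succinate for phosphate. The Slc13 carriers bring citrate and dicarboxylates into the cell from blood or urine together with sodium. Slc13a5 is the citrate importer of the hepatocyte and the mammalian relative of the fly gene Indy, while Slc13a2 is best known from the brush border of kidney tubule and intestine and Slc13a3 from the basolateral membrane of the kidney tubule.

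The promoters of the 4 carriers whose arrays varied together or differed between diets are shown because they differ in their core elements. RefSeq starts in build GRCm38.p6 were found for all 5 genes, with 2 starts for Slc13a5, which are not printed. Each line gives the 250 bases before the annotated start, 5′ to 3′ on the gene's strand. Capitals mark matches on either strand to the TATA motif TATANAA, the GC box GGGCGG, the CCAAT box by its own letters, the E-box CACGTG, or the core TGACGT of the cyclic AMP response element.
Slc13a2, chr11:78422235-78422484 (- strand): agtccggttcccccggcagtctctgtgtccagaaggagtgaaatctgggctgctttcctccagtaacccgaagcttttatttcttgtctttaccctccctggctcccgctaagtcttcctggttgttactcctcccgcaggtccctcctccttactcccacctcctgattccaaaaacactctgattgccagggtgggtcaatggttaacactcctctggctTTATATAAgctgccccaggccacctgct
Slc13a3, chr2:165473198-165473447 (- strand): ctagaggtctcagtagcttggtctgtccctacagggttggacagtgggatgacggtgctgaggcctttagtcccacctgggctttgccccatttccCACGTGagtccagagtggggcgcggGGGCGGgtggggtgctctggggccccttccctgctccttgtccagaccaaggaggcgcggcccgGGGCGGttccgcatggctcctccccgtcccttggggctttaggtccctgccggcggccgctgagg
Slc25a1, chr16:17928220-17928469 (- strand): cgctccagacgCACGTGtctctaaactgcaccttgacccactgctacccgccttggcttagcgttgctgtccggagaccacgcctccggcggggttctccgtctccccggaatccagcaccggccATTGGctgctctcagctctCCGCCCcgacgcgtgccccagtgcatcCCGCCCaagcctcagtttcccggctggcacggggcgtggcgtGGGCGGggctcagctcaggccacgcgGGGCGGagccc
Slc25a10, chr11:120491587-120491836 (+ strand): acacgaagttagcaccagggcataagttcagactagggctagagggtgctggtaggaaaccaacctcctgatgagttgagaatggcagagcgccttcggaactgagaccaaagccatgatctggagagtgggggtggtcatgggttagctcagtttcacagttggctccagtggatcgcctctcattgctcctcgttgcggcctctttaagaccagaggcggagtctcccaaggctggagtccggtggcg
Only the Slc13a2 window, of the 6 member windows, held TATANAA. Its match lay on both strands, overlapping, between 28 and 21 bases before the start, and 10.4% of the 32851 windows of the same length held this motif. GGGCGG was found in 4 of the 6 windows, against 32.7% of all windows, and 4 times in that of Slc25a1. CACGTG, held by 6.02% of all windows, was found in those of Slc13a3 and Slc25a1. CCAAT, held by 33.8%, was found in that of Slc25a1 and in 1 of the Slc13a5 windows. TGACGT, held by 6.47%, was found in none of the 6, and no motif searched was found in that of Slc25a10. The share of G and C was 53.6% for Slc13a2 and 56.0% for Slc25a10, against 67.6% for Slc13a3 and 70.0% for Slc25a1. A match is a run of letters and says nothing on binding.

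The deposited values were log2 levels, and their array medians fell into 3 ranges, 6.46 to 6.65 for 129, 4.51 to 4.67 for B6J and B6N, and 3.10 to 3.28 for C3H. Levels were therefore compared only among arrays of 1 range. The 11 hepatocyte markers measured were all above the array median in all 8 groups, by group averages of 7.01 to 8.79 log2 units over the list. The B6 arrays split into 2 parts along their first principal component, with HFD and control livers of both substrains in each. The HFD livers split unevenly, 5 in part 1 and 2 in part 2 for B6J, and 3 and 5 for B6N. Each control group had 4 arrays in either part. Part is therefore partly confounded with substrain among HFD livers, and with diet within each substrain. In 129, control replicate 6 stood apart along the first component. The livers carried pancreatic acinar transcripts at varying levels, which are given beside the substrain comparison.

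**Figure D1:**
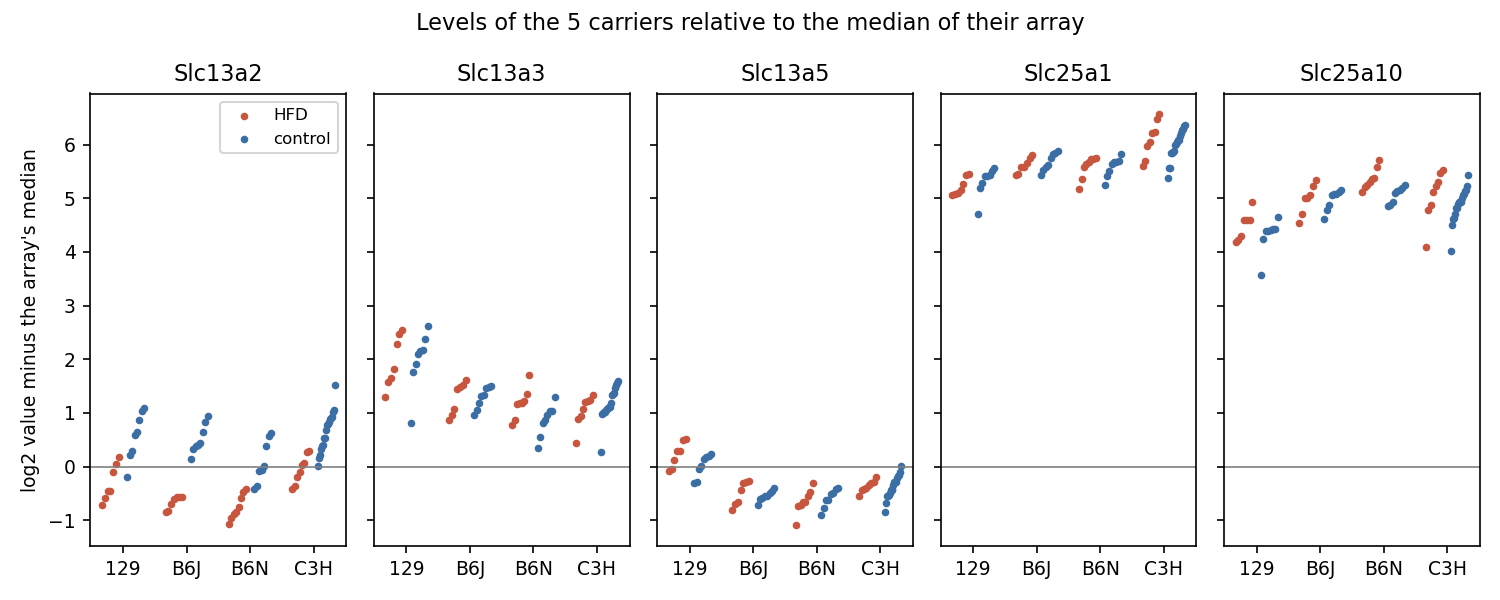
Levels of the 5 carriers in each of the 72 arrays, as the log2 value minus the median of its array (y axis), for HFD livers (red) left of control livers (blue) in each strain (x axis). Slc25a1 and Slc25a10 lie 3.58 to 6.57 log2 units above the median in every array, while Slc13a5 lies near or below it.

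The mitochondrial carriers were the brightest of the 5. Slc25a1 averaged 5.22 to 6.10 log2 units above the array median in the 8 groups, and Slc25a10 averaged 4.32 to 5.36. Slc13a3 averaged 0.87 to 1.99 above it and was above it in all 72 arrays. Slc13a2 averaged between -0.75 and 0.67, and Slc13a5 between -0.64 and 0.23. Probe sets differ in how brightly they report the same amount of RNA, so these figures place each gene on its own arrays and do not rank the amounts of the 5 transcripts. No detection calls were used, and a level under the array median cannot be told from background. In B6J, B6N and C3H, Slc13a5 lay under the median in 56 of 57 arrays. Of the HFD arrays, Slc13a2 lay under it in 5 of 7 in 129, 7 of 7 in B6J, 8 of 8 in B6N and 4 of 8 in C3H.

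Slc13a2, the low-affinity importer of succinate and citrate, was lower on HFD in all 4 strains. Among all genes, 8.43% had a lower HFD mean in all 4 strains. In B6J its log2 values had a lowest, median and highest of 3.74, 3.90 and 4.06 in HFD livers, against 4.71, 4.99 and 5.50 in control livers. In B6N they were 3.56, 3.75 and 4.17 in HFD livers, against 4.18, 4.57 and 5.25 in control livers. In both substrains every HFD array was below every control array, though in B6N the highest HFD value and the lowest control value lay 0.01 apart. Of all genes, 0.201% in B6J and 0.115% in B6N had HFD arrays wholly below the controls.

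In the other strains the groups overlapped. In 129 the lowest, median and highest were 5.81, 6.05 and 6.69 in HFD livers, against 6.45, 7.11 and 7.57 in control livers, and 5 of 7 HFD arrays were below every control. In C3H they were 2.74, 3.16 and 3.48 in HFD livers, against 3.25, 3.89 and 4.67 in control livers, and 6 of 8 HFD arrays were below every control. Complete separation with HFD lower was seen for 0.0752% of genes in 129 and 0.01% in C3H. Shares over all genes for such partial separation were not computed. The spread among livers was smallest in B6J on HFD, with a mean of 3.90 ± 0.12 (SD, n = 7), against 5.08 ± 0.27 (SD, n = 8) in B6J controls. That HFD mean lies 0.67 log2 units below the array median.

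**Figure D2:**
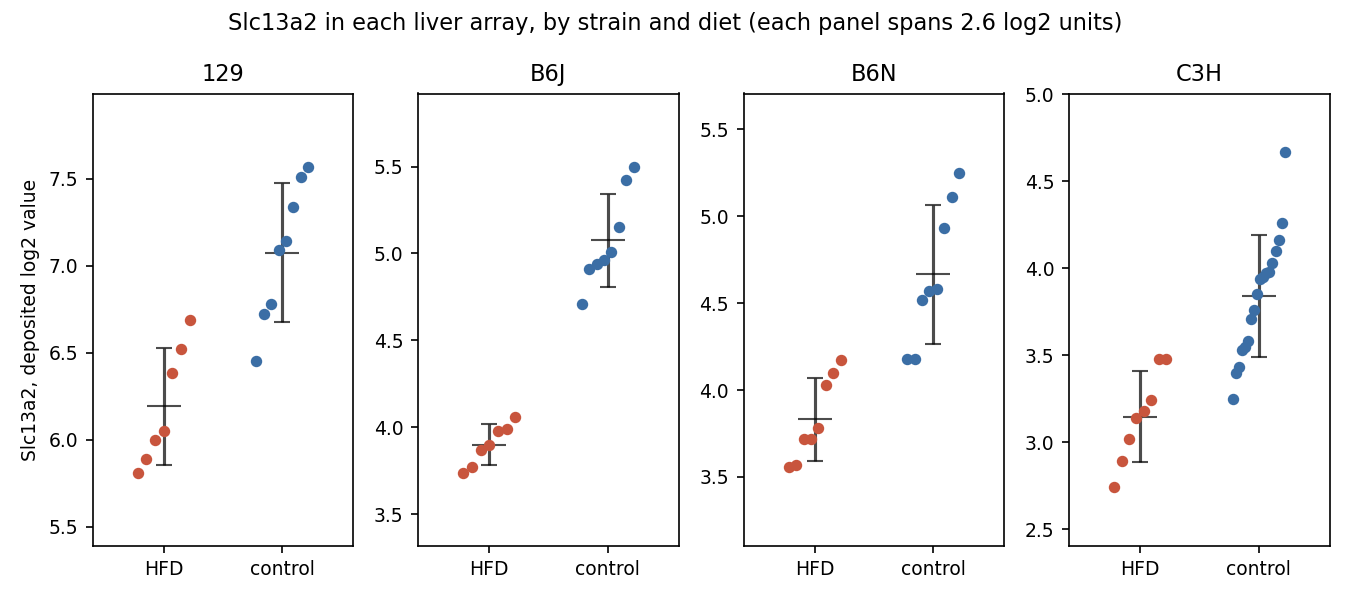
Slc13a2 log2 value (y axis) in each HFD liver (red) and control liver (blue) of the 4 strains. Points are arrays, bars are the mean ± SD, and each panel has its own range of the same width, since levels are not comparable between all strains. The HFD points lie wholly below the control points in B6J and B6N and overlap them in 129 and C3H.

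As HFD minus control, Slc13a2 differed by -1.17 ± 0.16 (SE) on the log2 scale in B6J. That is 2.26-fold lower, with a 95% interval of 1.81 to 2.82. In 129 it was 1.84-fold lower (1.48 to 2.30), in B6N 1.78-fold lower (1.44 to 2.21) and in C3H 1.62-fold lower (1.35 to 1.94). As the HFD arrays of B6J and B6N all lay under the array median, these folds describe the measured values only. A larger decrease may have gone unseen there. The median is no fixed floor, however, since Slc13a2 lay at -1.06 log2 units from it in B6N HFD replicate 4. The 4 intervals overlap, and whether the strains differ was not tested because the gene was chosen on these contrasts. The unweighted mean over the 4 strains was -0.90 ± 0.08, or 1.86-fold lower (1.68 to 2.07). Ordered by that mean, Slc13a2 stood 6th from the lowest of 19938 genes. Ordered by the smallest decrease seen in any strain it also stood 6th, at -0.69, between Fabp5, a fatty acid binding protein (-0.72), and Acmsd, an enzyme of tryptophan breakdown (-0.69). These ranks describe a gene picked for its decrease, rest in part on values near background and carry no test. Within part 1 and part 2 of the B6 arrays the HFD minus control difference was -1.11 and -1.23 in B6J, and -0.66 and -1.0 in B6N. Without 129 control replicate 6 the difference in 129 was -0.97. Fewer cells that express the gene and less transcript per cell cannot be told apart in whole liver.

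None of the other 4 carriers differed between the diets by more than 0.31 log2 units in any strain. Slc13a3, the high-affinity dicarboxylate importer, differed by -0.05, 0.01, 0.31 and -0.10 as HFD minus control in the order 129, B6J, B6N, C3H, with SEs of 0.14 to 0.17. Without 129 control replicate 6 the value in 129 was -0.20. Slc13a5, the hepatocyte citrate importer, differed by 0.19, 0.07, -0.05 and 0.03, with SEs of 0.08 to 0.10. Slc25a1, the mitochondrial citrate carrier, differed by -0.11, -0.06, 0.00 and 0.14, with SEs of 0.09 to 0.11. The signs of these 3 genes were mixed over the strains, and their means over the 4 strains were 0.04 ± 0.08, 0.06 ± 0.05 and -0.01 ± 0.05. The intervals of those means, -0.12 to 0.20, -0.04 to 0.16 and -0.12 to 0.10, give the size of change these arrays leave possible.

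Slc25a10, the mitochondrial dicarboxylate carrier, was the only one of these 4 with a higher HFD mean in every strain, as 10.6% of all genes had. The differences were 0.30 ± 0.13 in B6N, 0.19 ± 0.11 in C3H, 0.16 ± 0.14 in 129 and 0.02 ± 0.14 in B6J, with a mean of 0.17 ± 0.07 and an interval of 0.04 to 0.30. In B6N its lowest, median and highest values were 9.75, 9.88 and 10.33 in HFD livers, against 9.43, 9.68 and 9.78 in control livers. There 7 of 8 HFD arrays lay above every control, a count for which the share over all genes was not computed. In 129 the values were 10.68, 11.05 and 11.42 in HFD livers, against 10.23, 10.89 and 11.11 in control livers, and the groups overlapped. The lowest control value there, 10.23, belonged to replicate 6, and without it the difference in 129 was 0.07. Without B6J HFD replicate 6 the difference in B6J was -0.04, and without C3H HFD replicate 6 that in C3H was 0.32. In B6J the values were 9.09, 9.61 and 9.96 in HFD livers, against 9.16, 9.63 and 9.72 in control livers, which overlapped nearly throughout. In C3H they were 7.36, 8.36 and 8.67 in HFD livers, against 7.25, 8.11 and 8.59 in control livers, again with overlap.

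**Figure D3:**
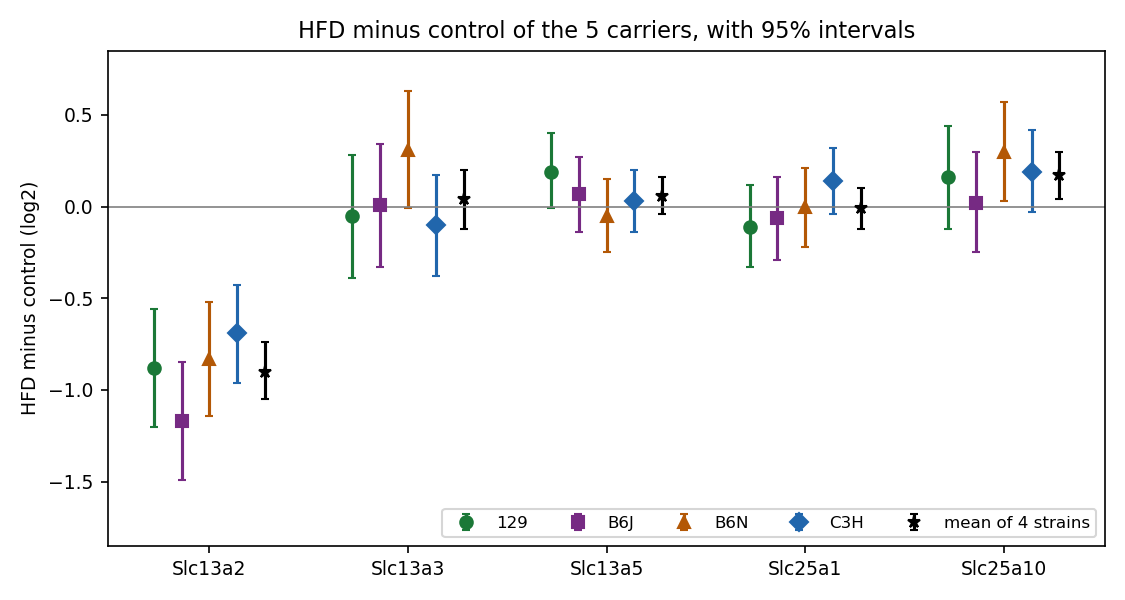
HFD minus control on the log2 scale (y axis) for the 5 carriers in the 4 strains and as the mean of the 4 strains, with 95% intervals as bars. Slc13a2 lies between -1.17 and -0.69 in every strain, while the other 4 lie between -0.11 and 0.31.

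B6N and B6J shared a range of array medians, so their levels could be compared, and the mean of the 2 within-diet differences leaves out the diet contrast that chose the genes. Over both diets 0.361% of genes passed an adjusted p of 0.05 by limma with Benjamini-Hochberg adjustment, and 0 of the 5 carriers did. At an unadjusted p under 0.05 there were 3 of the 5, against 10.1% of all genes. Slc25a10 averaged 9.79 in B6N and 9.54 in B6J, a difference of 0.25 ± 0.10 (SE; adjusted p = 0.33). Slc13a2 averaged 4.25 in B6N and 4.49 in B6J, a difference of -0.24 ± 0.11 (adjusted p = 0.45). For Slc13a3 the means were 5.60 in B6N and 5.85 in B6J, a difference of -0.24 ± 0.12 (adjusted p = 0.47). Slc13a5 and Slc25a1 differed by -0.08 ± 0.07 and -0.04 ± 0.08 (adjusted p = 0.73 and 0.89 by limma). The intervals of the 5 differences reached no further than -0.47 on the lower side and 0.45 on the upper side.

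The differences within 1 diet rest on arrays of the diet contrast that chose the genes and are given with no test, while of all genes 0.191% passed in HFD livers and 0.0351% in control livers. In HFD livers alone Slc25a10 averaged 9.94 in B6N and 9.55 in B6J, a difference of 0.39 ± 0.14 (SE). In control livers alone its means were 9.64 in B6N and 9.53 in B6J. The Slc13a2 difference was -0.07 ± 0.16 in HFD livers and -0.41 ± 0.15 in control livers, and that of Slc13a3 was -0.09 ± 0.17 in HFD livers and -0.39 ± 0.16 in control livers. The Slc25a10 difference over both diets passed by limma with array weights (0.26, adjusted p = 0.043) and with the first component as a covariate (0.25, adjusted p = 0.021). That component was drawn from the deviations of these same arrays from their group means. As a covariate it cannot move a difference and only takes spread out of the residuals, so passing with it is no separate support. The Slc25a10 difference was 0.37 in part 1 and 0.06 in part 2 of the B6 arrays.

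Pancreatic acinar transcripts averaged lower in B6N than in B6J livers, with ranges that overlapped. All 12 acinar genes measured were above the array median on average. The mean of the list, in log2 units above that median, ran from a lowest of 0.33 to a highest of 3.6 in B6N HFD livers, 0.15 to 2.04 in B6N control livers, 0.36 to 6.27 in B6J HFD livers and 0.51 to 6.92 in B6J control livers. As B6N minus B6J over both diets, the list's median difference was -1.59, against 0.01 over all genes. Of its genes 0 passed by limma, while all 12 had an unadjusted p under 0.05, as 10.1% of all genes had. These 12 genes were read in the same livers and are not 12 separate results. The part of these transcripts in the carriers' differences was not tested.

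The livers also varied within a group, and these deviations from the group mean do not use the diet contrast. Over the 72 arrays, Slc25a1 and Slc25a10 deviated together with a Pearson r of 0.78 and a Spearman rho of 0.72 (each adjusted p = 3.3e-05, permutation within groups, 10 pairs, two-sided). The Pearson r was 0.84 in 129, 0.66 in the B6 arrays and 0.82 in C3H, and 0.70 and 0.50 in parts 1 and 2 of the B6 arrays. Without the 2 arrays farthest from the median of Slc25a1 it was 0.73, and without 129 control replicate 6 it was 0.76. Livers low in the citrate carrier tended to be low in the dicarboxylate carrier too. The smallest p that the permutations could give was 1e-05.

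**Figure D4:**
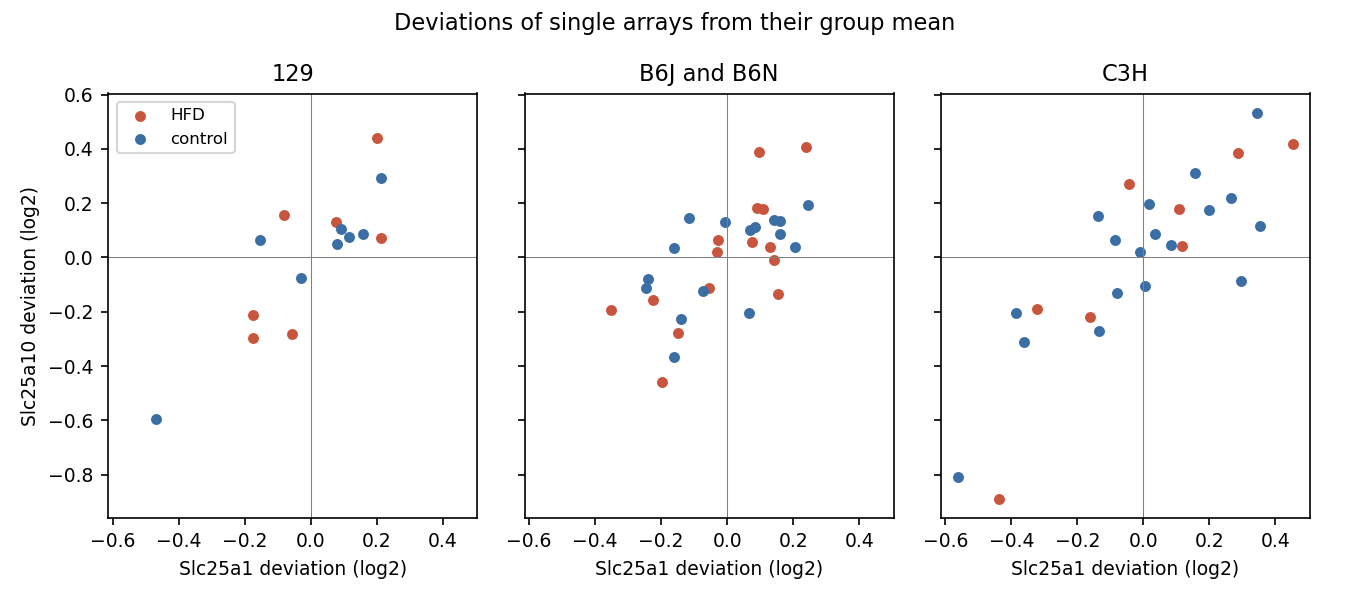
Deviation of Slc25a10 (y axis) against that of Slc25a1 (x axis) from the group mean, in log2 units, for each array in 129, in B6J and B6N, and in C3H, with HFD livers in red and control livers in blue. Both diets rise along the same diagonal, with r of 0.84, 0.66 and 0.82.

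Of the 10 pairs among the 5 carriers, 6 passed an adjusted p of 0.05 by this permutation test. These were the pairs without Slc13a5, with r of 0.50 to 0.78. How many pairs of other genes would pass the same test was not computed, so this count has no background to stand against. Slc13a3 with Slc25a10 had an r of 0.64, Slc13a2 with Slc13a3 0.54 and Slc13a2 with Slc25a10 0.51. The 4 pairs with Slc13a5 had r of -0.04 to 0.08 and did not pass. In parts 1 and 2 of the B6 arrays, however, Slc13a5 had r of 0.68 and -0.34 with Slc25a1, 0.58 and -0.19 with Slc25a10, and 0.43 and -0.16 with Slc13a3. Slc13a2 with Slc25a1 had an r of 0.50 over the 72 arrays, but -0.18 and 0.40 in parts 1 and 2 of the B6 arrays. Slc13a2 with Slc25a10 had 0.19 and 0.38 there.

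The first component of the deviations, which held 33.3% of their variance in 129, 29.4% in the B6 arrays and 26.9% in C3H, was also set against the carriers. Its sign is arbitrary. Its r with the 4 carriers other than Slc13a5 was -0.87 to -0.60 in 129, 0.19 to 0.54 in the B6 arrays and 0.57 to 0.84 in C3H, and with Slc13a5 it was 0.25, 0.18 and 0.29 in these sets. In the B6 arrays the value for Slc13a2 was 0.19, close to that of Slc13a5. With that component removed, Slc13a2 with Slc25a10 fell to an r of 0.25 (adjusted p = 0.06, permutation) and Slc13a3 with Slc25a1 to 0.21 (adjusted p = 0.087). The other 4 pairs still passed, most of them at a much lower r. Slc13a3 with Slc25a10 fell to 0.31, Slc13a2 with Slc13a3 to 0.33 and Slc13a2 with Slc25a1 to 0.30 (each adjusted p = 0.032, permutation). Slc25a1 with Slc25a10 had 0.62.

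Genes that deviated most like each carrier are named by the highest Pearson r over the 72 arrays, as a description over arrays that share their processing. For Slc25a10 these were Gpt, alanine aminotransferase (r of 0.87), Tysnd1, a peroxisomal protease (0.87), and Mdh2, mitochondrial malate dehydrogenase (0.85). For Slc25a1 they were Dgcr2 (0.87), Prpsap1, which binds the enzyme that makes phosphoribosyl pyrophosphate (0.87), and Slc22a18 (0.85). In RefSeq, 4 protein-coding genes lie between Slc25a1 and Dgcr2 on chromosome 16. Slc13a2 was most like Slc22a18 (0.66), Nags, which makes the activator of the urea cycle (0.66), and Gldc of the glycine cleavage system (0.65). Slc13a3 was most like Pnkd (0.78), the deubiquitinase gene Usp22 (0.76) and Lmf1, needed for lipase folding (0.75). For Slc13a5 no gene exceeded 0.54, the value of the olfactory receptor gene Olfr646. The median r over all genes was between -0.03 and 0.02 for each carrier.

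Among 24 other measured carriers of dicarboxylates, pyruvate, amino acids and related solutes, 4 rose and 0 fell on HFD in the mean over the 4 strains (limma, adjusted p under 0.05). Of all genes 3.16% passed, made up of 2.02% of all genes that were higher and 1.14% that were lower in HFD livers. The list's median difference was 0.05, against 0.00 over all genes. Slc25a30, a mitochondrial carrier first described in kidney, rose by 0.85 ± 0.14 log2 units, and Slc25a47, a mitochondrial carrier of hepatocytes, by 0.79 ± 0.09. Slc22a7, an organic anion transporter, rose by 0.56 ± 0.09, and Slc25a20, which carries acylcarnitines into mitochondria, by 0.42 ± 0.05. Their limma adjusted p-values lay between 1.1e-10 and 6.8e-06. Each was higher on HFD in all 4 strains. For Slc25a47 the differences were 1.18 in B6N, 0.91 in B6J, 0.65 in C3H and 0.42 in 129.

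Within single strains, 1 of the 24 passed in 129 (Slc25a20, 0.46) and 1 in B6J (Slc25a47, 0.91). All 4 passed in B6N, and 2 in C3H (Slc25a47, 0.65, and Slc25a20, 0.48). The shares of all genes that passed were 0.918% in B6N, 0.853% in C3H, 0.577% in 129 and 0.296% in B6J. Slc13a1 and Slc13a4, the sulfate carriers of the Slc13 family, had mean differences of -0.05 ± 0.08 and -0.04 ± 0.05 and did not pass. Slc25a11, the oxoglutarate and malate carrier, had 0.05 ± 0.04 and did not pass either. Slc25a47 was also higher in B6N than in B6J over both diets, by 0.51 ± 0.13 (limma adjusted p = 0.047), a call that ended without any 1 of 23 of the 31 B6 arrays. Other list genes that passed there were Cyp7a1 (-1.44), Cdh1 (-0.77) and Cidec (0.47), and the call for Cidec ended without any 1 of 19 arrays. Both Slc25a47 and Cidec missed the threshold with arrays centred on their median, with only the B6 arrays in the fit, and with the parts of the B6 arrays as a block (limma adjusted p = 0.063 and 0.053). Within part 1 and part 2, where fewer arrays entered, none of these 4 genes passed. Cyp7a1 had adjusted p-values of 0.067 in part 1 and 0.97 in part 2 by limma, and Cdh1 had 0.059 and 0.96.

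Of 24 genes of the citric acid cycle and its filling reactions, 2 rose and 1 fell on HFD in the mean over strains. Pcx, pyruvate carboxylase, rose by 0.38 ± 0.11 and Suclg1, a subunit of succinyl-CoA ligase, by 0.22 ± 0.04, while Idh2, mitochondrial isocitrate dehydrogenase, fell by 0.23 on the log2 scale (SE 0.07; limma adjusted p = 0.042, 3.7e-05 and 0.032). Cs, citrate synthase, differed by 0.06 ± 0.08 and did not pass. The list's median was 0.01. The Pcx call ended without any 1 of 28 arrays (0.34 to 0.43) and that of Idh2 without any 1 of 7 (-0.25 to -0.20), and both ended with arrays centred on their median. A trended robust variance prior ended the Pcx call too.

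Of 15 genes of cytosolic citrate and acetyl-CoA use, 0 rose and 2 fell. They were Acss2, which makes acetyl-CoA from acetate, at -0.45 ± 0.09 (limma adjusted p = 0.00039), and Scd1, a fatty acid desaturase, at -0.33 ± 0.10 (0.045). Acly, the enzyme that cleaves citrate, had 0.01 ± 0.13 and did not pass, and Fasn, fatty acid synthase, had 0.42 ± 0.18 and did not pass (limma adjusted p = 0.29). The list's median was -0.06. The Scd1 call ended without any 1 of 42 arrays (-0.36 to -0.30), with centred or quantile-normalised arrays and with that prior.

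Of 22 receptors and transcription factors of liver metabolism and their sentinel targets, 3 rose and 1 fell. Ppara, the fatty acid receptor, rose by 0.50 ± 0.08, Nr1i3, the constitutive androstane receptor, by 0.37 ± 0.11 and Tiparp by 0.20 ± 0.05 (limma adjusted p = 5.3e-06, 0.032 and 0.012). Cyp3a11, a target of the pregnane X receptor, fell by 0.58 on the log2 scale (SE 0.09; limma adjusted p = 2.1e-06) in the mean. It differed by -1.06 in 129, -0.79 in B6J and -1.08 in B6N and by 0.61 in C3H, each past the threshold. Ahr, the aryl hydrocarbon receptor, and Nr1i2, the pregnane X receptor, differed by -0.02 ± 0.07 and 0.01 ± 0.06 and did not pass. The median of these 22 was 0.03. The Nr1i3 call ended without any 1 of 13 arrays (0.33 to 0.40) and with centred arrays.

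**Figure D5:**
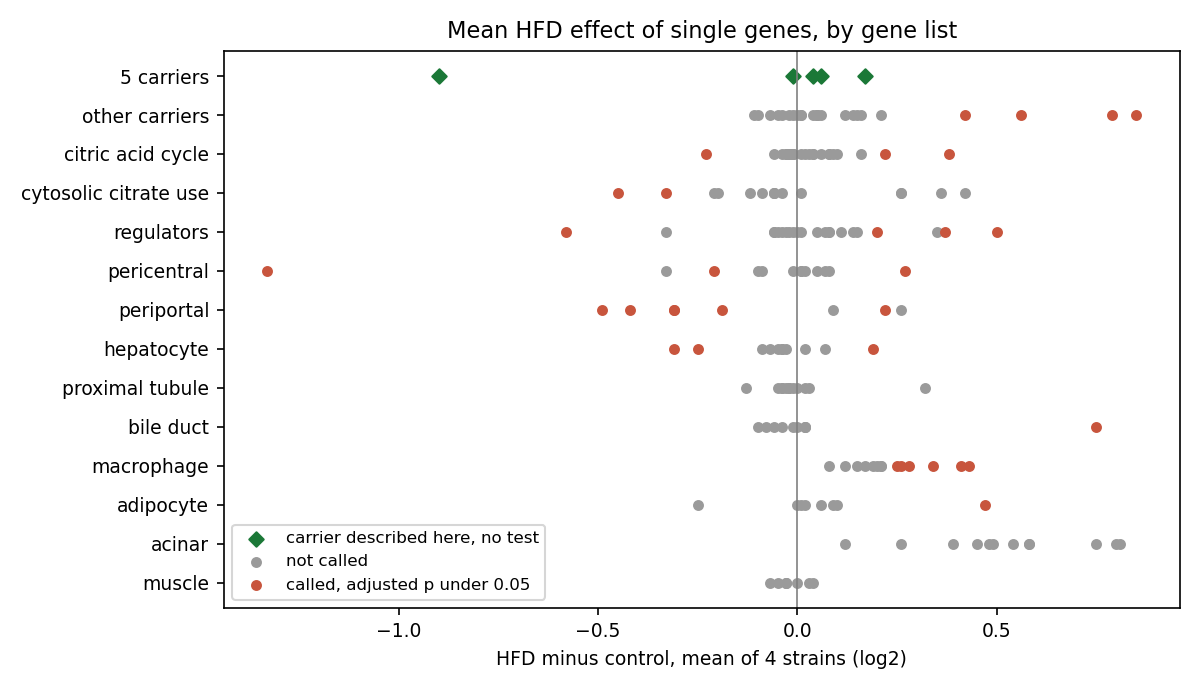
Mean HFD minus control difference over the 4 strains on the log2 scale (x axis) for each gene of the 13 lists and the 5 carriers (rows). Red points passed an adjusted p of 0.05 by limma, grey points did not, and green diamonds are the 5 carriers, which were not tested. Slc13a2 lies at -0.90, and in these lists only Cyp7a1 (-1.33) lies lower.

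Marker genes of liver zones and other cells moved with the diet as well. Of 8 measured periportal hepatocyte markers 1 rose and 5 fell, with a median of -0.25. Cdh1, a junction protein, and Hal, a histidine-degrading enzyme, had -0.49 ± 0.10 and -0.42 ± 0.06 (limma adjusted p = 0.00041 and 1.3e-07), Cps1 -0.31 and Cyp2f2 -0.31, and Arg1 -0.19, while Ctsc rose by 0.22. Of 13 pericentral markers 1 rose and 2 fell, with a median of 0.01. They were Lect2 (0.27), Oat (-0.21) and Cyp7a1, the rate-limiting enzyme of bile acid synthesis (-1.33 ± 0.20, limma adjusted p = 7.9e-07). Of the 11 hepatocyte markers Hp rose by 0.19, and Cps1 and Tat fell by 0.31 and 0.25 on the log2 scale. The Tat call ended without any 1 of 46 arrays (-0.28 to -0.23) and with centred or quantile-normalised arrays, and the Oat call without 129 control replicate 4 or 129 HFD replicate 3 (-0.23 to -0.18). The level of the periportal list, as its mean above the array median, ran from 5.65 to 6.25 in B6N HFD livers and 5.78 to 6.59 in B6N control livers.

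Slc13a2 is a kidney tubule gene by reputation, and of 12 proximal tubule markers 0 passed in the mean over strains by limma, with 2 at an unadjusted p under 0.05, against 11.1% of all genes. Their list mean lay between -0.08 and 0.24 log2 units from the array median in the 8 groups, and 3 to 5 of the 12 lay above it. Of 14 macrophage markers 6 rose and 0 fell, with a median of 0.21, among them Adgre1 (0.43) and Cd5l (0.41). In 129 alone 6 rose, and the macrophage list there averaged 2.63 above the array median in HFD livers and 2.08 in control livers, while in B6N it averaged 2.90 in HFD livers and 2.83 in control livers. Of 10 bile duct markers 1 rose, Slc10a2, the bile acid importer (0.75 ± 0.09), and of 8 adipocyte markers 1 rose, Cidec, a lipid droplet protein (0.47). Of 12 acinar and 8 muscle markers 0 passed by limma, with 0 of either at an unadjusted p under 0.05. The median difference of the acinar list was nevertheless 0.51 in the mean over strains. By strain the list's median was 1.33 for B6N, 0.63 for 129, 0.39 for B6J and -0.22 for C3H. In B6N 3 of its 12 genes had an unadjusted p under 0.05, against 5.68% of all genes. The part of these cell types in the carriers' differences was not tested.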

How the data were processed

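The log2 values per probe set were made by the authors with RMA, and the submitters' processing notes name Affymetrix Expression Console 1.1. Which arrays were normalised together is not given in the sources used here. RMA subtracts background, quantile-normalises arrays and summarises probes. Arrays quantile-normalised together have near-equal medians, whereas the array medians here fell into 3 ranges, so the 72 arrays do not share 1 scale. Of 35556 probe sets, 21789 had 1 gene symbol in the platform annotation, 1621 had several and 12146 were not listed. Each of the 19938 genes was represented by its brightest such probe set on average over the 72 arrays.

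One limma 3.58.1 model (R 4.3.3) had a mean for each of the 8 groups and 64 residual degrees of freedom, with empirical Bayes moderation and Benjamini-Hochberg adjustment over all 19938 genes. The number of arrays limits the precision. The members and the 13 gene lists were chosen with earlier results of these data known. Genes were named as follows: the members, each list's genes passing an adjusted p of 0.05 in the mean diet effect (at most 6) or in B6N minus B6J over both diets (at most 4), and for each member the 3 genes with the highest r that was above 0 in 129, B6 and C3H arrays. A few further list genes (Slc13a1, Slc13a4, Slc25a11, Cs, Acly, Fasn, Ahr, Nr1i2) and the neighbours of Slc13a2 in rank were chosen after their values were seen. Pair correlations used 100000 permutations within groups (Python 3.11.15). Labels carry replicate numbers. Same-numbered B6N HFD and control livers deviated together (correlation over 0.1 in 8 of 8 pairs, lowest 0.101), a pairing taken from the data. Only 2 of the 8 HFD livers deviated most like the control of their own number. In B6N the numbers also follow the parts of the B6 arrays, with controls 1 to 4 and HFD livers 1 to 3 in part 1. These correlations therefore do not establish pairs. Tested on simulated data with 200 changed genes of 19938, the model called 83%, 79%, 92% and 89% of 1.5-fold changes for HFD in 129, B6J, B6N and C3H. Of its calls 5.73%, 4.32%, 3.03% and 3.57% were false. The simulated noise was independent between genes and arrays, so it lacked the shared first component and the uneven arrays of the real data. Alternatives covered the replicate number as a block, normalisation, array weights, the variance prior, the genes and arrays used, and, chosen after seeing the data, the parts of the B6 arrays, the first component and leaving out 129 control replicate 6 from the pairs. Promoters are from RefSeq (GRCm38.p6).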

Additional observations from a re-analysis of the deposited data

Results flagged for a closer look

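Slc25a10 in 129 control replicate 6 had a log2 value of 10.23, far below the other 7 livers of its group. The next value was 10.75 and the highest 11.11, so the gap took up 0.586 of the group's range. This was 1 of 35 combinations of carrier and group examined, and chance alone marks about 1 in 20. The same array stood apart along the first component and had the highest array median of the 129 arrays, 6.65. Its part in the value was not tested.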

How the results depend on the processing

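Slc13a2 stayed lower on HFD in each strain under all alternatives run, single arrays left out included, with HFD minus control of -0.97 to -0.81 in 129, -1.23 to -1.11 in B6J, -1.0 to -0.66 in B6N and -0.74 to -0.51 in C3H. Several alternatives cannot move its difference at all. These are the variance prior, the genes tested, a fit of only the strains compared, the first component and, in B6N, the replicate block. As the gene was picked for its decrease, these ranges are a description and no separate support. The number of genes that passed moved more. For the alternatives other than the first component, why was not tested. In the order 129, B6J and C3H, 115, 59 and 170 genes passed for diet, against 576, 129 and 105 with array weights and 41, 89 and 93 with only the arrays of the strains compared. With the first component as a covariate, 256, 135, 277 and 367 genes passed for diet in 129, B6J, B6N and C3H. Without it 115, 59, 183 and 170 passed, and in the mean over strains 1039 passed with it against 630. The component comes from the deviations of these same arrays, so this covariate leaves the differences unchanged and takes spread out of the residuals. For B6N minus B6J over both diets, in control livers and in HFD livers, 72, 7 and 38 genes passed. These became 396, 19 and 98 with that covariate, 36, 4 and 18 in part 1 of the B6 arrays and 10, 4 and 3 in part 2. Array weights gave 989 over both diets and 347 in HFD livers. Within part 1, 67 genes passed for diet in B6N, and within part 2, 10 in B6J. Slc25a10 passed for B6N minus B6J over both diets with array weights (0.26) and with the covariate (0.25). It was 0.41 and 0.39 in HFD livers under these and -0.05 in control livers of part 2.

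The same-numbered livers met the pairing rule only for B6N diet groups, where the replicate block gave 202 genes against 183. With every number present on both diets, that block cannot move a B6N difference. Slc13a2 therefore stayed at -0.83 there by construction, which is no check of its decrease. The other comparisons did not meet that rule. Correlations were over 0.1 in 6 of 7, 5 of 7 and 1 of 8 pairs for diet in 129, B6J and C3H. For B6N with B6J they were over 0.1 in 4 of 7 pairs of HFD livers and 6 of 8 of control livers. A replicate block shared by both substrains gave 360, 14 and 77 genes for B6N minus B6J over both diets, in control livers and in HFD livers. In the mean over strains the block within each strain ended the calls of Idh2, Scd1, Cyp2f2, Tat and Timd4. A block within each strain leaves B6N minus B6J without an estimate.

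Differences near 0 turned sign. Slc25a1 as B6N minus B6J became 0.00 over both diets with quantile normalisation and with array weights, 0.02 in part 1, 0.02 and 0.04 in HFD livers with quantile normalisation and array weights, and 0.05 in control livers of part 1. Slc13a5 became 0.04 in HFD livers of part 1 and 0.01 in control livers of part 2. With arrays centred on their median, r became 0.04 for Slc13a2 with Slc13a5 and 0.06 for Slc13a5 with Slc25a1. With the first component removed it became -0.01 for Slc13a5 with Slc25a10. That removal lowered r without turning its sign from 0.51 to 0.25 for Slc13a2 with Slc25a10, and from 0.54 to 0.21 for Slc13a3 with Slc25a1. Leaving out 1 array at a time, 69 to 158 genes passed for diet in 129 and 38 to 61 in B6J, and 49 to 115 and 22 to 50 for B6N minus B6J over both diets and in HFD livers. The lowest count in 129 was without HFD replicate 6, the lowest in B6J without control replicate 5, and the highest over both diets without B6N control replicate 1. Slc13a5 in control livers ran from -0.05 to 0.02 and Slc25a1 in HFD livers from -0.04 to 0.04. Without 129 control replicate 6, r was 0.04 for Slc13a2 with Slc13a5 and 0.03 for Slc13a5 with Slc25a1. With only brighter genes tested, 10993 remained, Slc13a5 not among them. Levels near or below the array median limit what can be read for Slc13a2 on HFD and for Slc13a5.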
